A study of Homo sapiens with 6 samples.

Results

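Most of the listed genes of ribosome biogenesis and RNA polymerase I were lower in CAOV2 ovarian cancer cells after TAZ silencing. The list held 47 gene symbols, matched by symbol to the Ensembl identifiers of the deposited table, and 46 of the 17211 genes in that table were found. BOP1 was not analysed here. CAOV2 is a human ovarian cancer cell line, which the labels also call primary cells. The siTAZ group was 3 libraries of cells transfected with a Dharmacon siRNA against TAZ, the Hippo pathway coactivator encoded by WWTR1. The siNT group was 3 libraries of cells given a non-targeting siRNA, the AllStars Negative Control. Both groups carried the lipid reagent Lipofectamine RNAiMAX and grew in DMEM with serum. Per the labels' protocols, 100000 cells were seeded, 100 pmol of siRNA was applied for 2 days, and the cells were taken on day 3. The libraries were poly(A) selected, so ribosomal RNA itself was not measured.

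Ribosomes are built in the nucleolus. RNA polymerase I transcribes the long precursor of ribosomal RNA, small nucleolar ribonucleoproteins (snoRNPs) guide its chemical modification, and assembly factors fold, cleave and export the pre-ribosomal particles of the small and large subunits. Cancer cells are known for large nucleoli and a high demand for these factors, and the transcription factor MYC is a known activator of many of the genes.

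Of the 46 measured members, 37 fell in siTAZ, 0 rose and 9 did not pass the test (limma across all genes, Benjamini-Hochberg adjusted p under 0.05). The background was high, since 27.5% of the 17204 genes tested were called lower and 28.3% were called higher. Among genes averaging 1000 or more, 38.4% were called lower. The members' share called lower was 80.4%. Members higher at an unadjusted p under 0.05 also numbered 0 by limma, and edgeR and DESeq2 on the recovered reads called 0 higher at the adjusted threshold. The members' median log2 fold change was -0.31, against -0.0013 over all genes tested. The falls were modest in size, and log2 fold changes of members ran from -0.96 to 0.06. Tested against a fold of 1.2 (limma treat), 16 of 46 members fell and 0 rose. Below, past 1.2-fold means called lower by limma treat, and a fold above 1.2 alone does not count. That is 34.8% of the members, beside 11.2% of all genes and 12.3% of those averaging 1000 or more. In 38 members every siTAZ library lay below every siNT library, a pattern that 30.3% of all genes showed. Because the RNA came from bulk cultures, fewer cells with a transcript and less transcript per cell cannot be told apart.

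**Figure D1:**
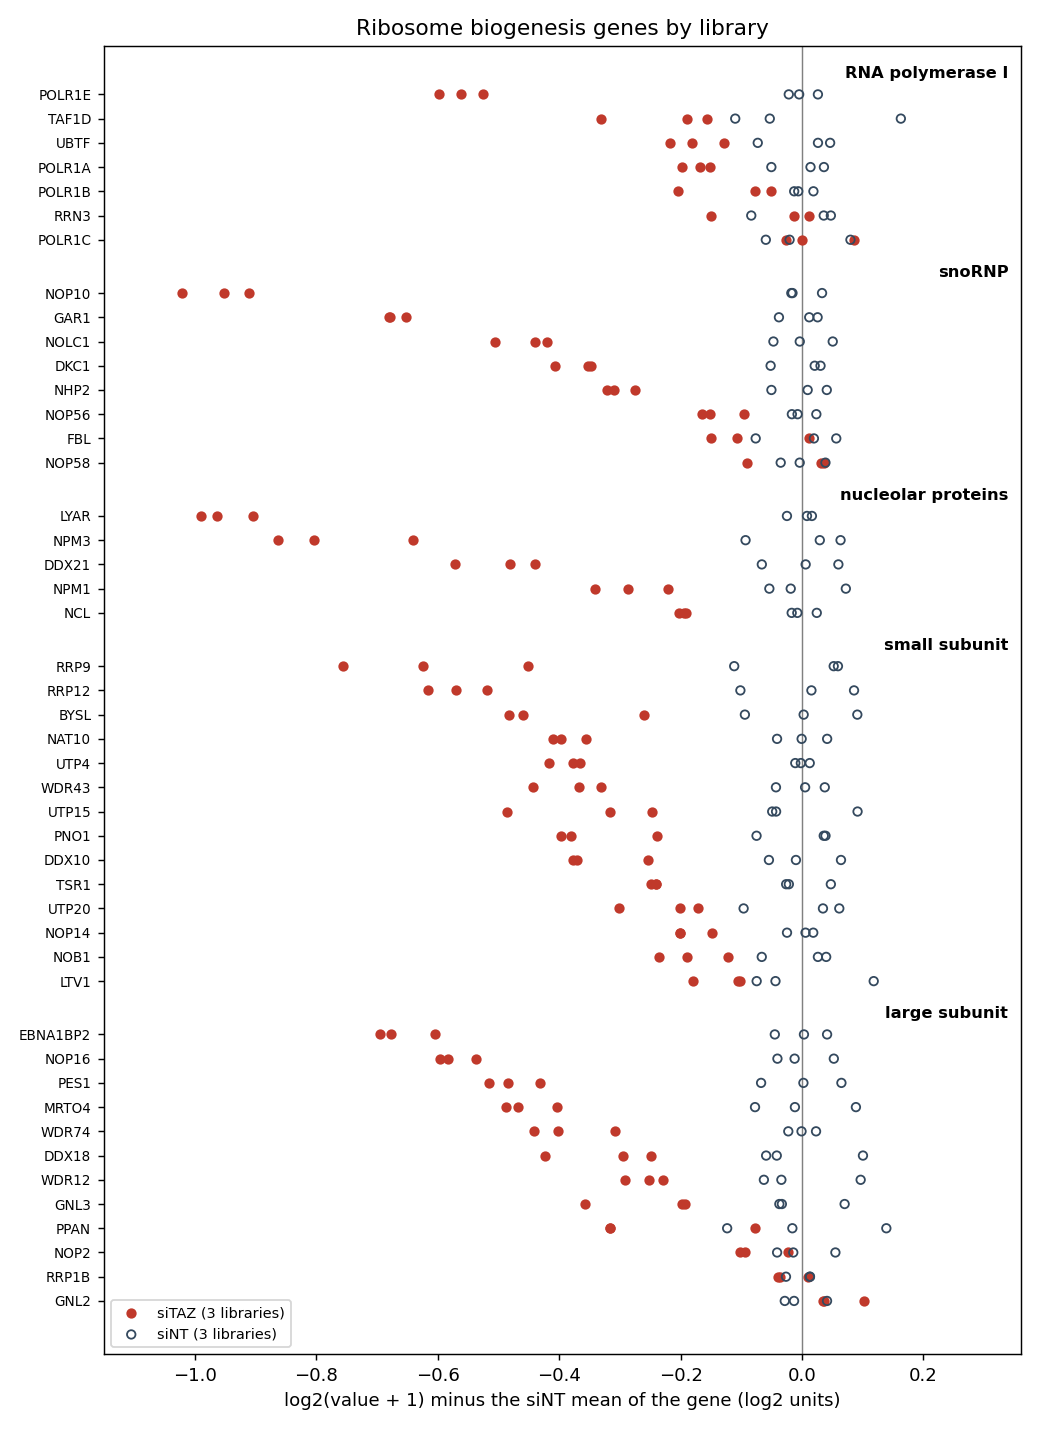
Each row is a measured member, grouped by role and ordered by fold change. The horizontal axis is log2(value + 1) minus the gene's siNT mean; filled points are the 3 siTAZ libraries and open points the 3 siNT libraries. Most filled points lie left of the open ones, and the widest gaps are at NOP10 and LYAR, with log2 fold changes of -0.96 and -0.95.

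The fall was also seen as a share of all reads, which does not depend on the size factors. Reads of the members took 0.705%, 0.703% and 0.709% of the reads in genes in siTAZ replicates 1, 2 and 3. In siNT replicates 1, 2 and 3 they took 0.835%, 0.823% and 0.838%. The 3 siTAZ shares lay below the 3 siNT shares, and the spread within each group was small beside the gap. Taken library by library, the median member differed from its siNT mean by -0.319, -0.313 and -0.251 log2 units in siTAZ and by -0.017, -0.013 and 0.025 in siNT.

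**Figure D2:**
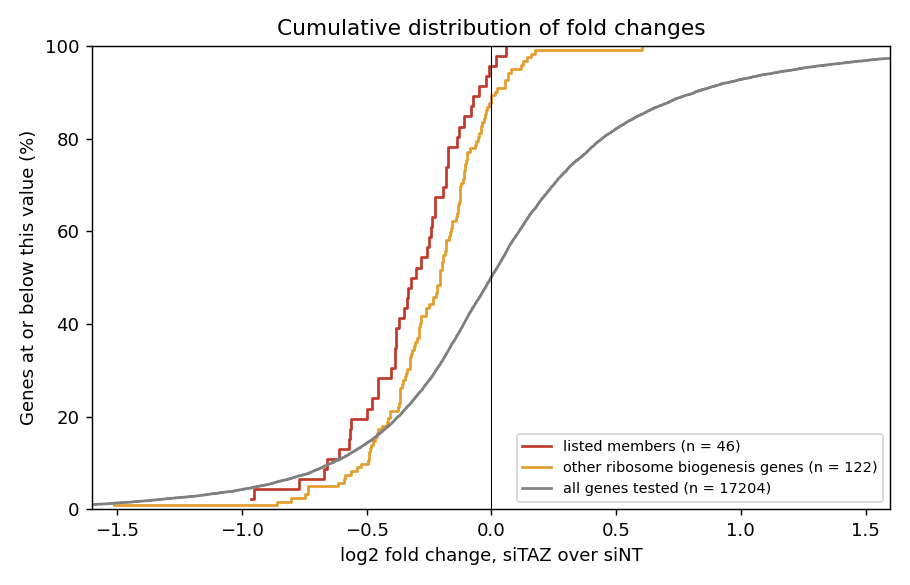
Cumulative distribution of log2 fold changes (horizontal axis, siTAZ over siNT) as the percentage of genes at or below each value (vertical axis), for the 46 measured members, 122 other ribosome biogenesis genes and all 17204 genes tested. The curves of the members and of the other biogenesis genes lie left of the curve of all genes around 0, with medians of -0.31 and -0.21.

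Reads in genes numbered 28458503 to 34488196 per siTAZ library and 25478595 to 28928432 per siNT library. Each deposited value is a read number over its library's size factor, and levels below are in that unit, as mean ± SD with n = 3 per group. WWTR1, the silenced gene, had 242, 277 and 280 in siTAZ and 4359, 4217 and 4258 in siNT, a 16.1-fold fall. The summed level of the 7 ovarian carcinoma markers analysed was 69353 to 75728 in siTAZ and 82236 to 89096 in siNT, and its part in the results was not tested. Epithelial keratins were abundant, with KRT8 at 39346 in siTAZ and 35206 in siNT and KRT18 at 22365 in siTAZ and 27495 in siNT. KRT7 had a mean of 8604 in siTAZ and 22847 in siNT. The epithelial adhesion genes EPCAM and CDH1 had means of 1361 and 579 in siTAZ, against 501 and 256 in siNT. The ovarian lineage markers PAX8 and MUC16 were scarce, with 18.2 and 7.98 in siTAZ and 28.8 and 11.9 in siNT, and WT1 was not analysed here. Of the markers of other cells, 0 of 4 endothelial and 1 of 4 leukocyte genes (CD68) entered the analysis, while 4 of 5 fibroblast genes did. The summed level of the fibroblast genes, most of it LUM, was 3972 to 4603 in siTAZ and 4012 to 4662 in siNT.

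Promoter sequence was looked up because the members moved together. The hexamer CACGTG, the canonical E-box of basic helix-loop-helix factors, is its own reverse complement and so reads the same on both strands. RefSeq promoter windows (GRCh38.p14, 250 bases before to 50 bases after each listed start) were found for 40 of the 46 members, and 11 of these had more than 1 listed start. At least 1 window held CACGTG in 20 of the 40 genes, or 50% (95% Wilson interval 35.2% to 64.8%). Over the 11722 genes of the deposited table with a window the share was 12.2%, and over all 35116 windows it was 7.26%. In 13 of the 20 genes no match lay wholly in the bases before the start, and the match of RRP9 straddled it. With the 250 bases before the start alone, the shares were 17.5% of the members and 10.9% of the table's genes. The hexamer GGAATG, the core bound by TEAD factors, was found on either strand in 15% of the members and 15% of the table's genes. CCGGAA, a core bound by ETS factors, was found on either strand in 55% of the members and 32.9% of the table's genes.

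Of the 20 members with CACGTG, 16 fell, and 11 of them passed limma treat against 1.2-fold. Of the 20 members with a window and no CACGTG, 17 fell, and 2 of them, NPM3 and NOP16, passed limma treat. Some members fell by more than 1.2-fold without passing limma treat. With the hexamer these were BYSL and PNO1, and without it DKC1, WDR74, UTP15, DDX10, NHP2 and NPM1. The median log2 fold change was -0.39 with the hexamer and -0.24 without it. In all genes tested, those with CACGTG had a median of -0.02 and 12.2% past 1.2-fold lower, and those without had a median of 0.01 and 11.3%. Among genes averaging 1000 or more, the median was -0.05 with the hexamer and -0.05 without it. In these genes 11.4% with it and 12.4% without it fell past 1.2-fold. The shares of these genes called lower were 38% with it and 39.4% without it, beside 80% and 85% of the members. These are descriptions of letters in a window, and the difference between members with and without the hexamer was not tested.

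The stretches below are RefSeq sequence of build GRCh38.p14, read 5′ to 3′ on the gene's strand, with each CACGTG in capitals. NOP10 is shown for its 250 upstream bases because it was among the members that fell most and holds the hexamer at 2 places. LYAR, GAR1, EBNA1BP2, RRP9, DDX21 and PES1 are shown with 30 bases around the hexamer as members that fell past 1.2-fold, and GNL2 and FBL as members that hold it and did not pass the test. EBNA1BP2 also holds the hexamer after another listed start, too near the window's end to be shown with 30 bases.
NOP10 upstream (chr15:34343137-34343386, minus strand): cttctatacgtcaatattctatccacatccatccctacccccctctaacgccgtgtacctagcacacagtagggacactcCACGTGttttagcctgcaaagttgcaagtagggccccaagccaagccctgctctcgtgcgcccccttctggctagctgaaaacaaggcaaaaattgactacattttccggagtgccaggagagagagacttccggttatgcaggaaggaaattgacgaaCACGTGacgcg
LYAR (chr4:4290068-4290097, minus strand): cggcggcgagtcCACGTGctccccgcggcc
GAR1 (chr4:109815781-109815810, plus strand): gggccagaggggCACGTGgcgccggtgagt
EBNA1BP2 (chr1:43172790-43172819, minus strand): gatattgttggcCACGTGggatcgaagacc
RRP9 (chr3:51941892-51941921, minus strand): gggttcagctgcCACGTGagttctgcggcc
DDX21 (chr10:68956604-68956633, plus strand): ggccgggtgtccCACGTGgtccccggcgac
PES1 (chr22:30591880-30591909, minus strand): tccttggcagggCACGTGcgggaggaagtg
GNL2 (chr1:37595917-37595946, minus strand): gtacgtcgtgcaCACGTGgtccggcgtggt
FBL (chr19:39846356-39846385, minus strand): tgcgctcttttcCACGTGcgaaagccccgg

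Among the parts of the RNA polymerase I machinery, 4 of 7 members fell, and the 3 others missed the threshold. That is 57.1% called lower, beside 38.4% of genes averaging 1000 or more. Past 1.2-fold, 14.3% of the group fell, close to the 12.3% of those genes. The median of the group was -0.17 on the log2 scale. POLR1E, a polymerase subunit that acts in initiation, had 1446, 1375 and 1411 in siTAZ replicates 1, 2 and 3, against 2051, 2076 and 2121 in siNT replicates 1, 2 and 3. The groups were far apart, and POLR1E fell 1.48-fold (log2 fold change -0.56, SE 0.051, limma adjusted p = 6.6e-08). The large catalytic subunit POLR1A had the highest deposited values of the group, though not per kilobase of exon. It had 7470, 7389 and 7238 in siTAZ and 8013, 8379 and 8508 in siNT. Every siTAZ library lay below every siNT library by a small margin, and POLR1A fell 1.13-fold (limma adjusted p = 0.0032). UBTF, which binds the ribosomal DNA promoter, had 5492, 5162 and 5294 in siTAZ and 5707, 6199 and 6113 in siNT. It also fell 1.13-fold without overlap between the groups (limma adjusted p = 0.0049).

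TAF1D, a subunit of the promoter selectivity factor SL1, had 1933, 2131 and 2181 in siTAZ and 2722, 2343 and 2252 in siNT, a fall of 1.17-fold (limma adjusted p = 0.0090). The call did not hold without siNT replicate 1 (0.050), and the adjusted p ranged from 0.0049 to 0.050 over 15 alternatives. The remaining catalytic subunit POLR1B had 3447 ± 191 in siTAZ and 3719 ± 43.2 in siNT (log2 fold change -0.11, limma adjusted p = 0.070). RRN3, the factor that joins the polymerase to SL1, had 1596 ± 93.9 in siTAZ and 1653 ± 82 in siNT (limma adjusted p = 0.48). POLR1C, a subunit shared with RNA polymerase III, had 1169 ± 47.7 in siTAZ and 1153 ± 58.1 in siNT (limma adjusted p = 0.79). The falls within the polymerase thus differed in size between subunits, though differences between genes were not tested.

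Of the 8 snoRNP genes, 6 fell and the other 2 missed the threshold. The share called lower was 75%, beside 38.4% of genes averaging 1000 or more. Their median was -0.34 on the log2 scale. NOP10, a small core protein of the box H/ACA particles that convert uridine to pseudouridine, had 2127, 1970 and 2067 in siTAZ and 3952, 3957 and 4093 in siNT. The siTAZ libraries held about the same NOP10 level as one another and none came near a siNT library. It fell 1.95-fold (log2 fold change -0.96, SE 0.049, limma adjusted p = 6.0e-11). GAR1, another box H/ACA core protein, had 1002, 982 and 983 in siTAZ and 1603, 1534 and 1588 in siNT. GAR1 fell 1.59-fold, with a spread within groups far below the gap (limma adjusted p = 1.4e-08). The pseudouridine synthase DKC1, dyskerin, fell 1.29-fold to 5028 ± 115 in siTAZ, against 6495 ± 201 in siNT. NHP2, the last core protein of that particle, fell 1.23-fold to 3170 ± 54.3, against 3908 ± 125 in siNT. NHP2 shares 43.8% of its exon bases with a gene on the opposite strand, and the strand setting was not given, so its reads are uncertain.

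The box C/D particles, which methylate ribose, have 3 of their core proteins among the members. FBL, the methyltransferase fibrillarin and the most abundant gene of this group, had 14460, 13318 and 12931 in siTAZ and 13606, 14542 and 14918 in siNT. The groups overlapped and FBL did not pass (limma adjusted p = 0.19, log2 fold change -0.08). Its fall passed without siTAZ replicate 1 (0.026), with adjusted p from 0.026 to 0.64 over 15 alternatives. NOP58, a scaffold protein of the particle, had 4665 ± 227 in siTAZ and 4687 ± 120 in siNT (limma adjusted p = 0.91). Its partner NOP56 fell 1.10-fold to 7172 ± 183, against 7888 ± 116 in siNT (limma adjusted p = 0.013). Its call did not hold with total count scaling (0.093) and without siTAZ replicate 2 (0.054), siTAZ replicate 3 (0.066) or siNT replicate 3 (0.064). Over 15 alternatives the adjusted p ran from 0.0042 to 0.093. The 4 box H/ACA proteins had a median log2 fold change of -0.52 and the 3 box C/D proteins one of -0.08, a difference that was not tested. The box C/D median leaves out SNU13, a box C/D core protein outside the member list, which fell by 0.37 on the log2 scale. NOLC1, a chaperone of both particles, had 11016, 10383 and 10859 in siTAZ and 14263, 14698 and 15262 in siNT. It fell 1.37-fold with no overlap between the groups (limma adjusted p = 2.3e-07).

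**Figure D3:**
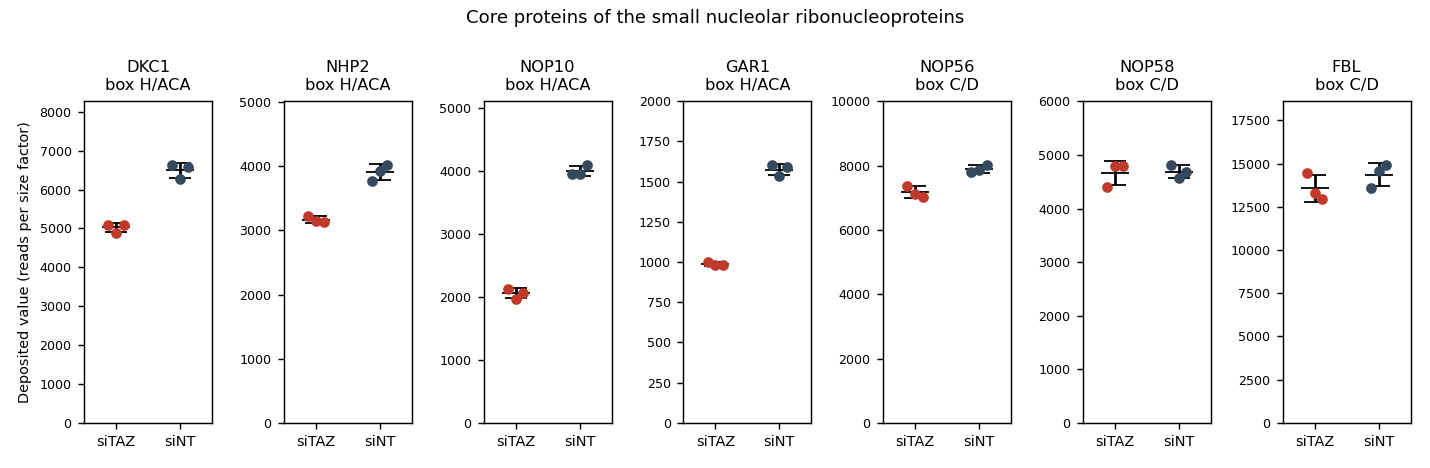
Deposited values (vertical axes from 0, reads per size factor) of the 7 snoRNP core proteins in the 3 siTAZ and the 3 siNT libraries, with a bar and whiskers for mean and SD; points stand in replicate order. The 4 box H/ACA genes separate the groups, NOP10 most, while NOP58 and FBL of the box C/D particle overlap.

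All 5 abundant or multifunctional nucleolar protein genes fell, with a median log2 fold change of -0.50. Among genes averaging 1000 or more, 38.4% were called lower. LYAR, a zinc finger nucleolar protein, had 1261, 1284 and 1339 in siTAZ and 2535, 2464 and 2521 in siNT. The groups stood well apart, and LYAR fell 1.94-fold (log2 fold change -0.95, SE 0.051, limma adjusted p = 1.1e-10). NPM3, a histone chaperone related to nucleophosmin, had 2549, 2184 and 2275 in siTAZ and 3726, 4153 and 4055 in siNT. It fell 1.70-fold, and the highest siTAZ library was well under the lowest siNT library (limma adjusted p = 1.2e-08). DDX21, an RNA helicase of ribosomal RNA transcription and processing, had 13124, 13982 and 14382 in siTAZ and 20332, 18630 and 19586 in siNT. DDX21 fell 1.41-fold without overlap (limma adjusted p = 2.0e-07).

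NCL, nucleolin, had the highest deposited values of the members. It had 34633, 34357 and 34557 in siTAZ and 39312, 39060 and 40194 in siNT. The SD of its siTAZ libraries was 142, the groups did not overlap, and it fell 1.15-fold (limma adjusted p = 0.00097). NPM1, nucleophosmin, fell 1.22-fold to 10795 ± 457, against 13131 ± 597 in siNT (limma adjusted p = 9.7e-05). GENCODE release 29 names 45 pseudogenes after NPM1, so its reads are uncertain. Per kilobase of exon, FBL and NCL stood highest of the measured members, at 11698 and 8556 in siTAZ and 12376 and 9797 in siNT, against 4142 in siTAZ and 5039 in siNT for NPM1.

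**Figure D4:**
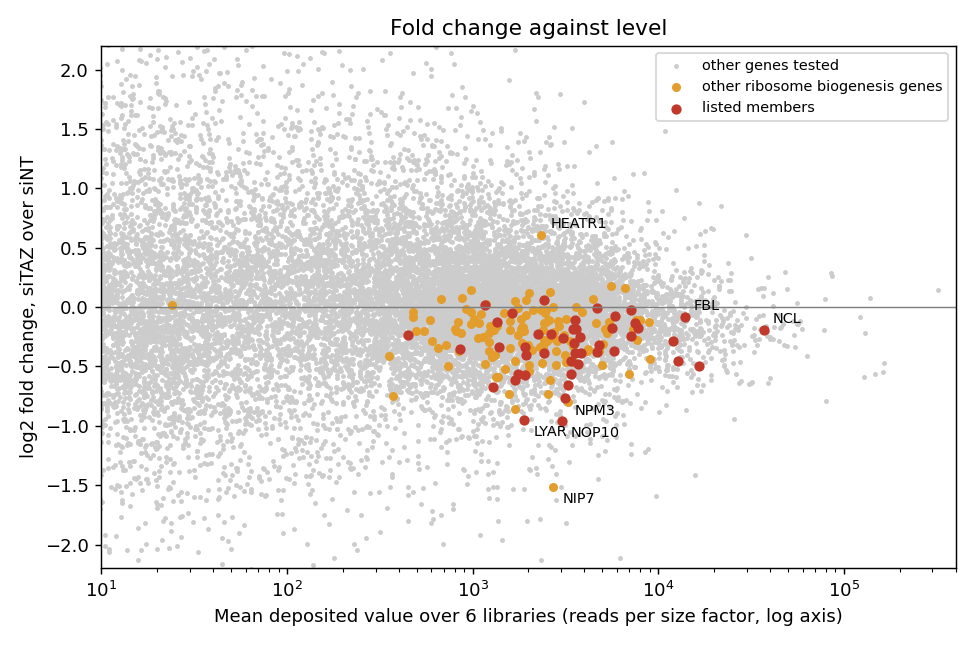
Log2 fold change of siTAZ over siNT (vertical axis) against the mean deposited value over the 6 libraries (horizontal log axis) for the listed members, the other ribosome biogenesis genes and the other genes tested; genes beyond the axis limits are not drawn. Nearly all members lie below 0 across their range of levels, from 446 to 37019, and NIP7 and HEATR1 mark the extremes of the other biogenesis genes, at -1.51 and 0.60.

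Of the 14 small subunit genes, 13 fell and 1, LTV1, missed the threshold. The share called lower was 92.9%, beside 38.4% of genes averaging 1000 or more. Their median was -0.34 on the log2 scale. In each of the 14, the siTAZ libraries all lay below the siNT libraries, a pattern that 30.3% of all genes showed. RRP9, a protein of the U3 snoRNP that starts cleavage of the precursor, had 1491, 1208 and 1323 in siTAZ and 1888, 2115 and 2126 in siNT. The fall was 1.52-fold, with a wider spread among siTAZ libraries than in most members (log2 fold change -0.61, SE 0.071, limma adjusted p = 1.4e-06). RRP12, which acts in export and maturation of pre-ribosomes in yeast, had 2814, 2716 and 2630 in siTAZ and 3756, 4074 and 4277 in siNT. RRP12 fell 1.48-fold and its groups were clearly apart (limma adjusted p = 1.2e-07). UTP4, a part of the early small subunit processome, had 3094, 3010 and 3120 in siTAZ and 4014, 3988 and 4054 in siNT. Its replicates agreed closely and it fell 1.31-fold (limma adjusted p = 1.4e-06).

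TSR1, a late small subunit assembly factor, had the highest deposited values of the group, though not per kilobase of exon. It had 6524, 6491 and 6523 in siTAZ and 7594, 7571 and 7967 in siNT. It fell 1.18-fold, a small change without overlap between the groups (limma adjusted p = 0.00015). NAT10, which acetylates cytidines of small subunit RNA, fell 1.31-fold, and the processome protein WDR43 fell 1.30-fold. BYSL, bystin, fell 1.32-fold. UTP15 and UTP20, also of the processome, fell 1.27-fold and 1.17-fold, and the helicase DDX10 fell 1.26-fold. PNO1 and NOB1 are partners at the last cleavage of small subunit RNA, which NOB1 performs, and they fell 1.26-fold and 1.13-fold. NOP14 fell 1.14-fold. LTV1, a late export and assembly factor, had 1291 ± 39 in siTAZ and 1414 ± 103 in siNT and did not pass (limma adjusted p = 0.080). It shares 34.8% of its exon bases with other genes on the same strand, so its reads are uncertain.

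Of the 12 large subunit genes measured, 9 fell and 0 rose, which leaves 3 without a call. The share called lower was 75%, beside 38.4% of genes averaging 1000 or more. The median of the 12 was -0.29 on the log2 scale. EBNA1BP2, whose yeast relative acts early in large subunit assembly, had 2640, 2510 and 2478 in siTAZ and 3890, 4129 and 4022 in siNT. The groups were far apart, and EBNA1BP2 fell 1.58-fold (log2 fold change -0.66, SE 0.048, limma adjusted p = 5.4e-09). NOP16, a nucleolar protein of the pre-large subunit, had 1525, 1513 and 1575 in siTAZ and 2223, 2267 and 2371 in siNT. It fell 1.49-fold with tight replicates (limma adjusted p = 5.7e-08). PES1, pescadillo, had 3207, 3027 and 3093 in siTAZ and 4130, 4334 and 4527 in siNT. PES1 fell 1.39-fold without overlap (limma adjusted p = 3.5e-07). Its partner WDR12, in the complex these form with BOP1, fell to a mean of 2794 in siTAZ, against a mean of 3343 in siNT.

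MRTO4, which holds the place of a stalk protein on the pre-ribosome, fell 1.37-fold, and WDR74 fell 1.30-fold. The helicase DDX18 fell by 0.32 on the log2 scale and the GTPase GNL3, nucleostemin, fell 1.19-fold. PPAN had the lowest mean deposited value of the members, though not per kilobase of exon. It fell 1.18-fold to 410 ± 40.3, against 483 ± 44.5 in siNT, although its groups overlapped (limma adjusted p = 0.030). PPAN shares 83.2% of its exon bases with the readthrough gene PPAN-P2RY11, so its reads are uncertain. The PPAN call did not hold with total count scaling (0.086) and without siTAZ replicate 2 (0.12), siTAZ replicate 3 (0.11), siNT replicate 2 (0.15) or siNT replicate 3 (0.061). Over 15 alternatives the adjusted p ran from 0.0030 to 0.15.

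The 3 large subunit genes that did not pass had little difference in mean. RRP1B, with the highest deposited values of the 3, had 7284, 7042 and 7053 in siTAZ and 7104, 7301 and 7301 in siNT. The libraries of the groups intermingled (log2 fold change -0.02, SE 0.043, limma adjusted p = 0.69). NOP2, a methyltransferase of large subunit RNA, had 5716 ± 173 in siTAZ and 6013 ± 208 in siNT (limma adjusted p = 0.19), and 70.9% of its exon bases are shared with an overlapping gene on the same strand. GNL2, a GTPase related to nucleostemin, had 2468 ± 65.8 in siTAZ and 2372 ± 60.5 in siNT (log2 fold change 0.06, limma adjusted p = 0.33).

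Several properties that the list did not use varied along with the size of the fall. Exon length, as the union of annotated exons, was 1 of them. The 12 members under 2 kb had a median log2 fold change of -0.59, the 20 members of 2 to 4 kb one of -0.30 and the 14 members of 4 kb or more one of -0.25. The share called lower was 83.3%, 75% and 85.7% in the same order. Genes averaging 1000 or more showed the same order, with medians of -0.19 over 906 genes under 2 kb, -0.07 over 2221 genes of 2 to 4 kb and 0.04 over 3171 longer genes. Of these genes, 57.8% of those under 2 kb, 42.7% of those of 2 to 4 kb and 29.9% of the longer ones were called lower. Across the 46 members, Spearman's rho between log2 fold change and exon length was 0.31, against 0.24 across 6298 genes averaging 1000 or more; genes share libraries and are not independent. The part of transcript length in the members' falls was not tested.

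Some members carry genes of small nucleolar RNAs within their bounds on the same strand, so that 1 transcript can serve both the protein and the guide RNA. A place in an intron was not required, and DKC1 shares 4.19% of its exon bases with SNORA56. By GENCODE release 29, 10 of the 46 members hold at least 1 such gene, with 8 in TAF1D, 6 in GNL3 and 5 in NOP56. Of these hosts, 8 fell and 1, WDR43, fell past 1.2-fold, with a median log2 fold change of -0.23. Of the 36 members without one, 29 fell and 15 fell past 1.2-fold, with a median of -0.34. The shares called lower were 80% of the hosts and 80.6% of the others, beside 38.4% of genes averaging 1000 or more. The difference between hosts and the other members was not tested, and the snoRNAs themselves were not analysed here.

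Genes of the pathway outside the member list were lower as well. Of 125 such genes in 5 lists, 122 were measured, of which 78 fell and 3 rose, while 41 had no call. Their median was -0.21 on the log2 scale. The share called lower was 63.9%, and 20.5% fell past 1.2-fold. Over all genes tested these shares were 27.5% and 11.2%, and among genes averaging 1000 or more 38.4% and 12.3%. By list, 10% of the RNA polymerase I genes and 14.3% of the RNA exosome genes fell past 1.2-fold, close to that background. The share was 27.3% for snoRNP, 19.5% for small subunit and 23.9% for large subunit genes. Of 10 other RNA polymerase I genes, 5 fell and 0 rose. The SL1 subunits TAF1A and TAF1B fell to 277 ± 18 and 576 ± 7.73 in siTAZ, against 467 ± 47.5 and 732 ± 42.3 in siNT, or 1.68-fold and 1.27-fold. The polymerase subunit POLR1H fell 1.22-fold and the TATA-binding protein TBP, which SL1 also contains, fell 1.15-fold. The SL1 subunit TAF1C did not pass, with 2429 ± 164 in siTAZ and 2512 ± 108 in siNT (limma adjusted p = 0.48).

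Of 11 other snoRNP genes measured, 6 fell and 0 rose, with a median log2 fold change of -0.32. ZNHIT6, RUVBL1 and RUVBL2, which assemble box C/D particles, fell 1.40-fold, 1.37-fold and 1.36-fold. SNU13, the box C/D core protein that binds the RNA itself, fell 1.29-fold to 4189 ± 241, against 5400 ± 136 in siNT (limma adjusted p = 8.3e-06). FBL and NOP58 of the same particle did not pass, and the difference between these genes was not tested.

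Of 41 other small subunit genes measured, 29 fell and 1 rose. KRR1 fell 1.66-fold to 1908 ± 111, against 3173 ± 208 in siNT. The processome proteins PWP2 and FCF1 fell by 0.61 and 0.59 on the log2 scale. HEATR1, a large processome protein, was the gene that rose, to 2834 ± 158 in siTAZ, against 1863 ± 64.2 in siNT (0.60 on the log2 scale, limma adjusted p = 6.2e-08).

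Of 46 other large subunit genes, 29 fell and 2, PELP1 and DDX24, rose. NIP7, which acts in large subunit assembly, fell 2.85-fold to 1413 ± 27.6 in siTAZ, against 4030 ± 91.5 in siNT (limma adjusted p = 2.7e-13, log2 fold change -1.51). SBDS, which releases a blocking factor from the finished large subunit, fell 1.74-fold to 2395 ± 58.2, against 4176 ± 114 in siNT. RPF2, which brings a small ribosomal RNA particle into the pre-ribosome, fell 1.67-fold and NOC2L fell 1.48-fold. Of 14 genes of the RNA exosome, the nuclease complex that trims precursors, 9 fell and 0 rose. EXOSC6, EXOSC3, DIS3 and EXOSC4 fell by 0.86, 0.42, 0.31 and 0.26 on the log2 scale.

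MYC, the known activator of many of these genes, moved the other way by a small amount. It had 398, 373 and 355 in siTAZ and 308, 321 and 343 in siNT. The groups did not overlap, but the closest libraries were near each other, and MYC was 1.16-fold higher in siTAZ (limma adjusted p = 0.037, log2 fold change 0.21 with SE 0.082). The MYC call did not hold with DESeq2 (0.081) and without siTAZ replicate 1 (0.12), siTAZ replicate 2 (0.083), siNT replicate 1 (0.11) or siNT replicate 2 (0.081). Over 15 alternatives the adjusted p ran from 0.011 to 0.12.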

How the data were processed

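HISAT2, HTSeq, DESeq2, FastQC and build hg19 are named, per the submitters' processing notes. Tool versions, annotation and strand setting were not given in the sources used here. What was deposited is a signal, the authors' reads per gene divided by 1 size factor per library; this was found from the values, 100% of which were whole multiples of 1 step per library within 0.001 of a read. Dividing by the step recovered the whole reads. Of 17211 genes, 16662 were named from an identifier table and 81 from GENCODE release 29. The coordinates of that release, on build GRCh38 rather than hg19, also gave exon lengths, overlaps and snoRNA genes. By these, 23 of the 46 members share exon bases with another gene on the same or the opposite strand, so their reads are less certain. Among them are NOB1 (24.7%, opposite strand) and TSR1 (21.4%, opposite strand). Limma 3.58.1 (R 4.3.3), with an intensity trend, was fitted to log2(value + 1) of 17204 genes whose mean reached 1, in 1 fit of the 6 libraries with a group term alone; log2 fold changes on that scale understate changes of low genes. Calls are at a Benjamini-Hochberg adjusted p under 0.05 over all genes. Limma, edgeR 4.0.16 and DESeq2 1.42.0 were tested on simulated data. In this order they recovered 77.6%, 76.1% and 71.6% of changes of 1.25-fold, and each recovered 97.0% of those of 1.5-fold. Small changes can thus be missed, and a gene without a call is not shown to be unchanged. On the recovered reads, edgeR and DESeq2 served as alternatives, and edgeR called 9383 genes. Tables came from pandas 2.3.3 and numpy 2.4.6 under Python 3.11.15. Members, role groups and the wider lists were chosen with earlier results of these data known. Per-library values are given, in each role group, for the member with the highest deposited values. They are also given for the called members with the largest rise and the largest fall, and the next 2 called by adjusted p. Of each wider list, up to 4 called genes with the smallest adjusted p are named, and WWTR1 and MYC are given too. HEATR1 falls under that rule, while PELP1, DDX24 and TAF1C were named after their values were seen. The titles call the samples biological replicates, but no label says whether the cultures or days were separate; p-values therefore cover the spread among these 6 samples, which may be technical. Replicates differed beyond sampling noise (chi-square per degree of freedom 2.57 to 7.92), so none was a copy.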

Additional observations from a re-analysis of the deposited data

How the results depend on the processing

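Over 15 alternatives, 38 of the 46 members kept both their direction and their side of the threshold. Members called lower numbered 35 with total count scaling and 37 with TMM scaling, edgeR and DESeq2, and 35 to 38 when 1 library was left out; members past 1.2-fold numbered 12 to 17 when 1 library was left out and 13 to 19 under the others. The members' median log2 fold change moved to -0.26 with total count scaling, where the median of all genes was 0.05, and ran from -0.32 to -0.30 without 1 library. The CACGTG share of members was 17.5% with only the 250 bases before the start, since the shorter window leaves out 13 genes. Only members with log2 fold changes near 0 changed direction: POLR1C ran from -0.01 (without siTAZ or siNT replicate 1) to 0.06 when 1 library was left out, RRN3 at 0.0026 and RRP1B at 0.03 with total count scaling, and NOP58 at 0.05 with total count scaling, 0.0033 with edgeR and -0.03 to 0.03 when 1 library was left out (0.03 without siTAZ replicate 1, 0.01 without siNT replicate 1); the cause was not tested.

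The replicate numbers did not pair the samples. Deviations of siTAZ and siNT libraries of the same number from their group means correlated at -0.736, -0.545 and -0.206 over 6343 genes, and no siTAZ library correlated best with its own number; siTAZ replicate 1 did so with siNT replicate 2 (0.694). With the replicate block, 8701 genes, 0 members higher, 35 members lower and 13 members past 1.2-fold were called, against 9604, 0, 37 and 16 without it, and NOP56 (0.085), PPAN (0.054) and MYC (0.088) were not called. The member with the lowest mean level, 446, was PPAN, whose call was among those lost.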
